A study of Pistia stratiotes with 8 samples.

Results

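The transcripts described here are the 100 whose level varied least over 8 RNA sequencing libraries of Pistia stratiotes (water lettuce), an aquatic plant of the arum family that floats as a rosette of leaves with its roots submerged. They were drawn from 16504 transcript models, the rows of the deposited table. First the 8528 models (51.7%) that averaged 100 normalized counts or more were kept, and of these the 100 with the lowest coefficient of variation (CV, the sample SD over the 8 libraries divided by their mean) were taken. The values that chose the models are the same 8 values described below, so their low spread and the closeness of leaf and root are given as a description and carry no test. Leaf libraries (n = 4) came from the largest emerged leaf, and root libraries (n = 4) from roots whose tips and side branches had been cut off. In both groups the plants were young ones with 3 to 4 leaves, grown for 10 days on SH medium without any treatment, and 1 library was made from the pooled tissue of all plants of a flask. Each flask was seeded with 1 plant. The labels give no genotype or clone.

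A transcript whose amount per cell stays alike across organs can serve as a reference, a yardstick against which others are measured in quantitative PCR. Genes for general upkeep of the cell, such as parts of the cytoskeleton, of protein synthesis and turnover or of vesicle transport, are often used in this role in plants. In sequencing data no transcript is stable in itself: a level is relative to a scale, such as the total of all reads or a middle value over many transcripts. The models carry numbers (Pis11004.t1) and the table does not pair them with gene names, so no function is given for any of them and no sequence is shown. For the same reason the tissue labels could not be checked against marker genes.

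Leaf columns summed to 7299221 to 8749656 normalized counts and root columns to 5458151 to 5809933, although the estimated number of reads was alike, at 5814000 to 6209000 reads per leaf library and 5833000 to 5994000 per root library. The mean column total was 1.4 times as high in leaf as in root, or 0.49 on the log2 scale, whereas the median over models of the ratio to their geometric mean lay between 0.998 and 1.02 in every library. On the deposited scale it is thus the middle of the models, and not the total, that is level across libraries. Rank correlations across the 8528 models, which are not independent replicates, were 0.850 to 0.949 between leaf libraries and 0.951 to 0.976 between root libraries. Models are called by number and libraries by the column numbers of the table.

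The 100 models held their level within 1.095-fold to 1.30-fold between the highest and the lowest of the 8 libraries, with a median of 1.21-fold. For all 8406 models of the same range that were above 0 in every library the median was 2.23-fold. The CV of the 100 ran from 2.68% to 7.62% with a median of 6.82%, against a median of 27.9% for the 8528 models. As described by the choice itself, this is the lower edge of the distribution and not a separate group.

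The lowest CV was that of Pis11004.t1, at 2.68%. It had 658.5, 664.7, 664.8 and 658.9 normalized counts in the 4 leaf libraries, and 674.7, 664.4, 703.6 and 640.9 in the 4 root libraries. The leaf values lay inside the range of the root values, and root libraries 3 and 4 were its extremes. It averaged 661.7 ± 3.49 normalized counts over the leaf libraries and 670.9 ± 26.0 over the root libraries (SD, n = 4 each).

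Pis02156.t1, with a CV of 2.82%, had 721.1, 709.7, 702.9 and 697.6 normalized counts in leaf, and 665.3, 690.4, 728.5 and 691.2 in root. Leaf and root again overlapped, with root libraries 1 and 3 at the ends. Pis08303.t1, with a CV of 3.48%, had 472.2, 506.6, 492.9 and 481.2 in leaf, and 477.1, 471.7, 474.7 and 449.7 in root. Only root library 4 stood below the others by more than 20 normalized counts. Pis01402.t1, with a CV of 3.67%, had 558.0, 574.6, 542.8 and 569.5 in leaf, and 571.7, 610.7, 563.8 and 593.8 in root. All 4 models thus had overlapping organs and means of 478 to 701 normalized counts.

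At the other end of the set the limit fell among models that hardly differ in spread. Just inside were Pis09619.t1 with a CV of 7.60% and Pis02944.t2 with 7.62%, and just outside were Pis19524.t1 and Pis11393.t1, both with 7.63%. Pis02944.t2 had 369.7, 358.8, 286.1 and 346.7 normalized counts in leaf, and 343.7, 345.8, 337.4 and 367.3 in root. Its spread came mainly from leaf library 3, which was the lowest of the 8. A total of 324 models had a CV under 10%, so that more models lay close above the limit than inside it.

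**Figure D1:**
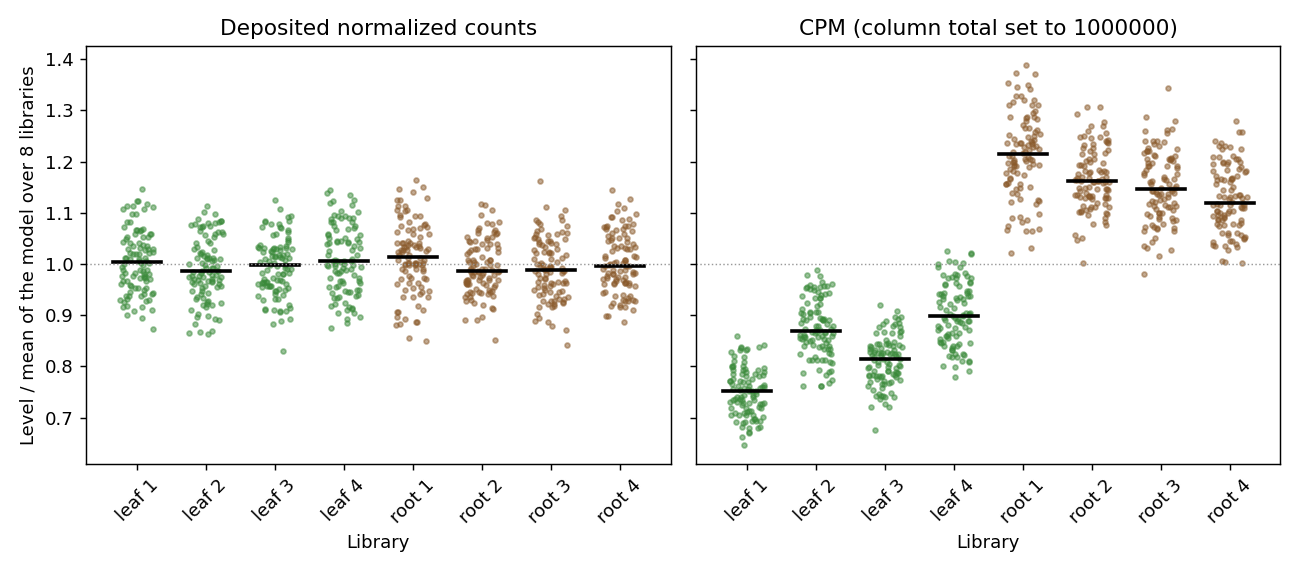
Level of each of the 100 models in each library, divided by the model's own mean over the 8 libraries, on the deposited scale (left) and on CPM (right). Points are models and black bars are medians; on the deposited scale the medians lie between 0.986 and 1.01, and on CPM between 0.752 and 0.899 in leaf and between 1.12 and 1.21 in root.

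Within each organ the 100 models were about as steady in leaf as in root. Their median CV was 5.78% within leaf and 6.03% within root, and the leaf CV was the larger for 47 of 100. Among all models of the range with a value in the tissue the medians were 20.1% in leaf and 13.2% in root, and the leaf CV was the larger for 73.8%. A choice over all 8 libraries limits the CV in both organs, so this evenness follows in part from the rule.

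The highest and the lowest values of the 100 models were spread over all 8 libraries. Leaf libraries 1 to 4 held the highest value for 14, 11, 7 and 20 of the 100 models, and root libraries 1 to 4 for 20, 8, 8 and 12. The lowest value lay in leaf libraries 1 to 4 for 10, 15, 16 and 11 models, and in root libraries 1 to 4 for 14, 12, 12 and 10. Among all 8528 models leaf library 1 was the highest for 23.4% and the lowest for 19.6%. Dividing each model by its own mean, the median of the 100 was 1.00, 0.986, 0.997 and 1.01 in the leaf libraries and 1.01, 0.986, 0.989 and 0.997 in the root libraries.

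The set covered a wide range of levels, from 103 to 6314 normalized counts with a median of 392, against a median of 320 for the range it was drawn from. The most abundant was Pis06744.t1, with 5741, 6069, 6097 and 5782 normalized counts in leaf, and 6522, 6715, 6813 and 6774.5 in root. Every leaf library was below every root library for this model, and it averaged 5922 ± 187 over the leaf libraries, against 6706 ± 129 over the root libraries (SD, n = 4 each). Pis11775.t1 came next, with 2044, 2101.5, 2150 and 2094 in leaf, and 2237, 1970, 2043 and 2007 in root, and its organs overlapped. The least abundant were Pis00958.t1, with 98.7, 105.8, 91.5 and 107.0 in leaf and 115.8, 106.1, 95.4 and 102.6 in root, and Pis00147.t1, with 113.6, 103.0, 115.1 and 103.6 in leaf and 121.8, 111.2, 97.9 and 115.8 in root. Both had CVs of 7.25% to 7.41%, near the limit of the set.

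Models of middle level were the most often chosen. Of those averaging 200 to 500 normalized counts 1.61% were in the set (51 of 3171), and of those from 500 to 1000 it was 1.46% (24 of 1642). The share was 0.927% above 1000 (11 of 1187) and 0.554% between 100 and 200 (14 of 2528). The median CV of all models was 27.8%, 25%, 26.9% and 39.8% in the bands from lowest to highest level.

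Much of the spread of these models was of the size that counting reads gives by itself. From the lowest values above 0, 1 read was estimated to stand for 1.13 normalized counts on average, so that the 100 models had 91.2 to 5600 reads per library with a median of 347. Counting error alone would then give a CV of 1.34% to 10.5%, with a median of 5.37%. The observed CV was a median of 1.19 times this value, and it was below it for 30 of the 100 models, against 55 of all 8528 (0.645%). All 14 members with a mean under 200 were below it, as were 11 of 51 from 200 to 500, 5 of 24 from 500 to 1000 and 0 of 11 above 1000. For Pis11004.t1 the estimate was 4.11%, above the observed 2.68%. For the abundant Pis06744.t1 it was 1.34%, well below the observed 7.04%. A CV computed from 8 values scatters around its true size and the rule takes the lowest values, so a CV under the counting error is no measure of the true spread of that model.

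**Figure D2:**
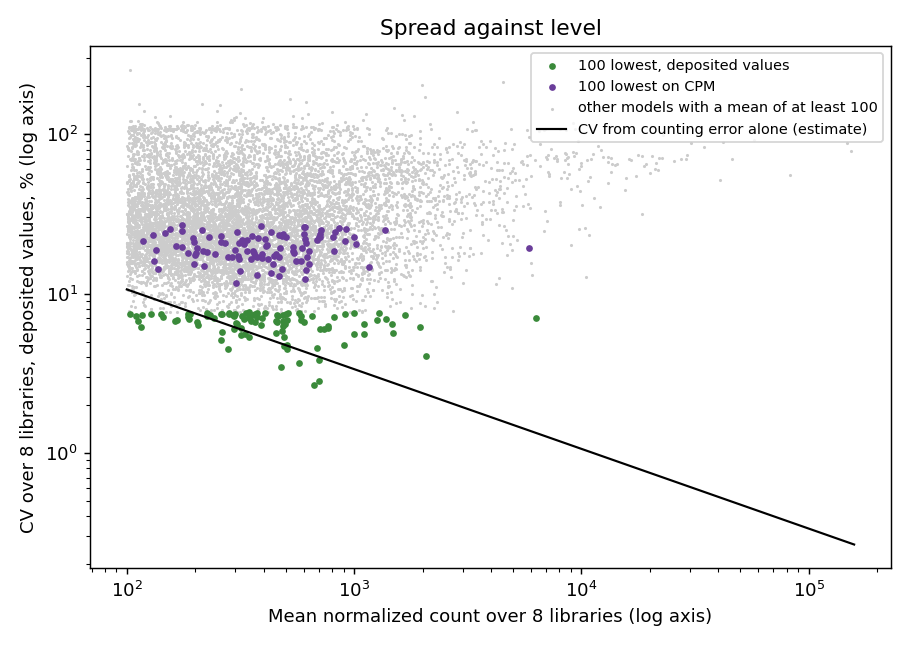
CV over the 8 libraries against mean level, both on log axes, for the 100 models chosen on the deposited scale, the 100 with the lowest CV on CPM, and the other models averaging 100 or more. The black line is the estimated CV from counting error alone; 30 of the 100 models lie below it, and on these deposited values the models chosen on CPM lie between 11.7% and 26.9%.

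Leaf and root differed little in the 100 models, as the choice demands. The difference of means on the scale log2(normalized count + 1), leaf minus root, ran from -0.18 to 0.18 with a median of 0.01, and 85 of the 100 were within 0.1 in size, against 11.5% of all 8528. The mean was higher in leaf for 53 and lower in leaf for 47. The largest difference with leaf higher was in Pis17899.t1, which had 472.1, 489.5, 494.1 and 477.7 normalized counts in leaf and 401.8, 432.6, 452.9 and 425.5 in root. Leaf and root did not overlap here, and the difference was 0.18. The largest with leaf lower was in the abundant Pis06744.t1, at -0.18. In all, the organs did not overlap in 6 of the 100 models, whereas they did not overlap in 49.1% of the 8528 models. Every leaf library was higher in 2 of the 100, beside 26.7% of the 8528, and lower in 4 of the 100, beside 22.4%.

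By limma with Benjamini-Hochberg adjustment over the 13688 models tested, 51.6% of all models were called at an adjusted p under 0.05 (24.4% higher and 27.2% lower in leaf) and 17.9% for a change above 2-fold, while 0 of the 100 were called by either. At an unadjusted p under 0.05 limma gave 0 of the 100 as well, and 57.2% of all tested models. No other tool was run. Since the rule bounded the spread over the same 8 libraries, and with it the leaf against root difference, nothing is read from these counts. The median standard error of a difference in the 100 was 0.12 on the log2 scale, of the order of the largest differences in the set. This is limma's moderated error, drawn toward the variance of all tested models, and not the members' own spread. For Pis06744.t1 it was 0.15, although its CV was 3.16% within leaf and 1.92% within root.

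**Figure D3:**
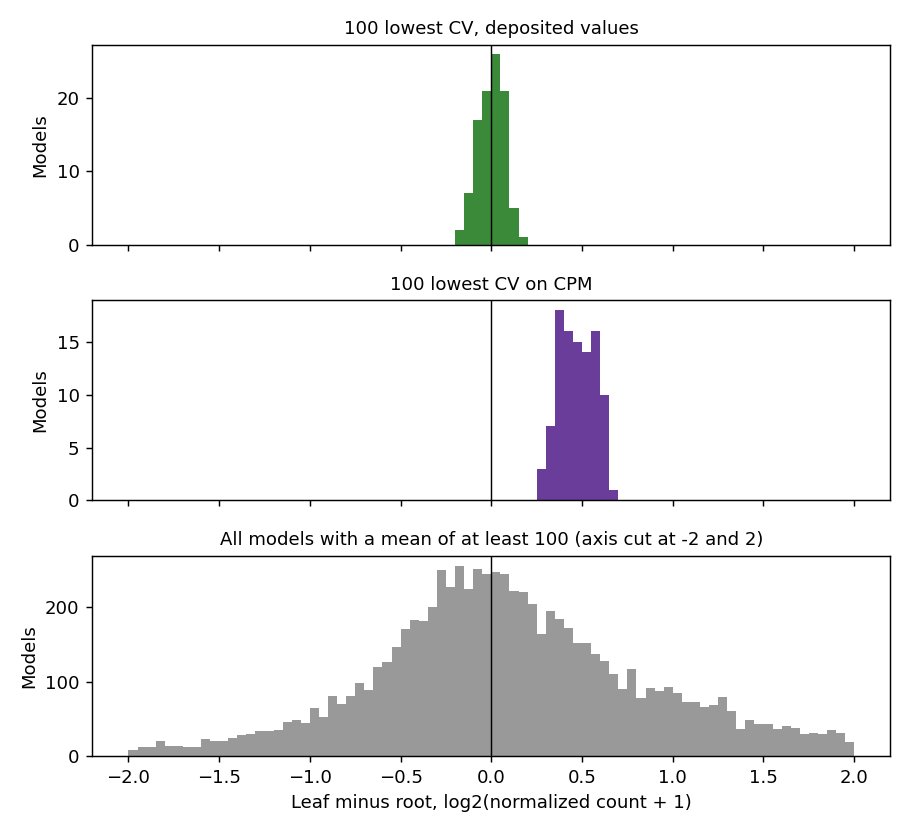
Number of models by leaf minus root difference on the scale log2(normalized count + 1), in steps of 0.05, for the 100 models, for the 100 with the lowest CV on CPM, and for all 8528 models of the range. The first set lies between -0.18 and 0.18 and the second between 0.30 and 0.67, without overlap; the axis of the third panel is cut at -2 and 2, and its values run from -11.14 to 11.00.

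On CPM, where each column total is set to 1000000, 0 of the 100 models stayed among the 100 with the lowest CV. Their median CV became 19.3%, with a range of 12.8% to 24.5%, and their ranks among the 8528 ran from 433 to 2733 with a median of 1582. The mean was lower in leaf for all 100 of them, and in 99 every leaf library was below every root library, beside 45.7% of the 8528 models on CPM. The median difference was -0.48 on the log2 scale, leaf minus root, close to the ratio of column totals with its sign turned. By limma on column totals 99 of the 100 were called lower in leaf and 0 higher, beside 61.9% of all tested models called, 48.5% lower and 13.4% higher in leaf. The 100 models together made up 0.730% ± 0.060 of the leaf libraries, against 1.03% ± 0.033 of the root ones (SD, n = 4 each).

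The steadiest model of the deposited scale shows the turn. Pis11004.t1 had 84.6 ± 7.05 CPM in leaf and 120 ± 6.66 CPM in root (SD, n = 4 each), a CV of 19.4%. The member with the best rank on CPM, picked after its values were seen, was Pis17899.t1 at rank 433, with 61.8 ± 5.59 CPM in leaf and 76.3 ± 3.50 CPM in root. It is the same model that had the largest excess in leaf on the deposited scale.

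The 100 models with the lowest CV on CPM were a different set. Their CV on CPM was 4.46% to 9.13% with a median of 7.69%, against 6.82% for the first set on its own scale, and 150 models had a CV under 10% on CPM, against 324 on the deposited scale. On the deposited scale these 100 models were higher in leaf by a median of 0.47 on the log2 scale (0.30 to 0.67). Every leaf library was above every root library in 97 of them, beside 26.7% of the 8528 models. This excess follows from the choice on CPM, since the column totals differ by 0.49 on the log2 scale. The best of them ranked 580 in CV there, and their median rank was 2497. The lowest CV on CPM was that of Pis12187.t1, which is no member and was picked after its values were seen, with 40.3 ± 1.73 CPM in leaf and 42.7 ± 1.07 CPM in root, but 365.6, 294.9, 304.4 and 302.2 normalized counts in leaf and 225.6, 236.8, 240.7 and 255.3 in root. Its organs do not overlap on the deposited scale.

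The passage from one set to the other was gradual. When the 4 leaf columns were moved as a block, 55 of the 100 models stayed among the lowest 100 when leaf was lowered by 0.1 log2 units (a shift of -0.1). At -0.2 it was 23, at -0.3 it was 4, and from -0.4 to -0.8 it was 0. In the other direction 55 stayed at 0.1, 19 at 0.2 and 6 at 0.3. The number of models with a CV under 10% was 324 without a shift, 313 at -0.1, 317 at 0.1 and 136 at -0.5. Dropping the 100 most abundant models from the column totals lowered the log2 ratio of the totals, leaf over root, to 0.18, and 24 of the 100 models then stayed. The upper quartiles of the libraries differed by 0.06 on the log2 scale, and scaling to them kept 64.

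**Figure D4:**
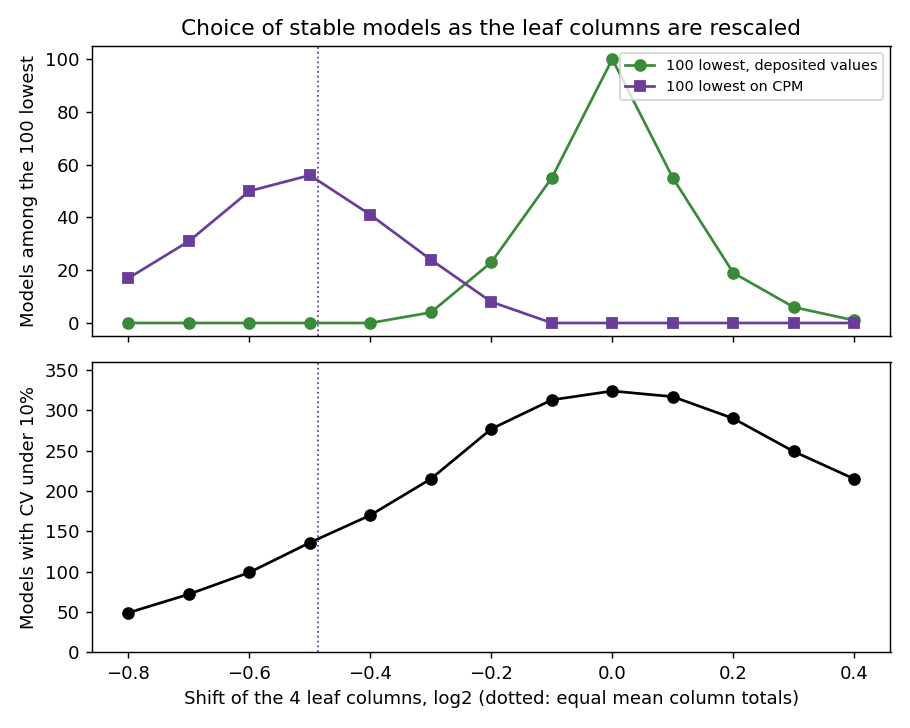
Upper panel, number of models of each set still among the 100 lowest in CV after the 4 leaf columns are multiplied by a common factor (horizontal axis, log2); lower panel, number of models with a CV under 10%. The dotted line marks the shift of equal mean column totals, -0.49 on the log2 scale; at -0.5 none of the 100 models and 56 of the models chosen on CPM are among the lowest.

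Ratios between models do not depend on the scale of a library, because its factor cancels. The logs were taken of the normalized count + 1, so the cancelling is not exact where values are low. The SD over the 8 libraries of the log2 ratio between a pair of models had a median of 0.13 among the 100, of 0.15 among the 100 chosen on CPM, of 0.30 between the sets and of 0.67 among all pairs of the 8528. Each set was chosen for even levels on its own scale, and the scales differ between the organs. Lower values within a set than between the sets or among all pairs therefore follow from the choice. The difference between 0.13 and 0.15 was not tested. Ranked by the mean of this SD against every other of the 8528 models, 78 of the 100 were among the lowest 100, and 0 of those chosen on CPM were. This ranking favours models that move with the middle of the others, and so leans on the same majority of models as the deposited scale. The lowest 2 were Pis02156.t1 and Pis08303.t1, which were also the second and the third by CV.

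Under quantile normalization, which gives all libraries the same distribution, 54 of the 100 models stayed and 1 of those chosen on CPM was among the lowest 100. After this scaling limma called 6 of the 100, beside 54.2% of all tested models. The number that stayed differed by level: 7 of 14 members stayed from 100 to 200 normalized counts, 35 of 51 from 200 to 500, 12 of 24 from 500 to 1000 and 0 of 11 above 1000. The abundant Pis06744.t1 fell to rank 5609 of 8528. By the pairwise ratios, 10 of those 11 abundant members were among the lowest 100.

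Stability in a library left out of the ranking was measured by choosing 100 models on 7 libraries and reading them in the eighth. The values were not rescaled without the left-out library, and other libraries of its organ remained among the 7. The reading is therefore not fully independent of the choice. The median absolute deviation of the chosen models from their mean over the 7 was, in log2 units, 0.23, 0.12, 0.17 and 0.15 in leaf libraries 1 to 4, and 0.20, 0.10, 0.13 and 0.11 in root libraries 1 to 4. For all models of the range it was 0.46, 0.32, 0.37 and 0.33 in leaf and 0.40, 0.32, 0.33 and 0.30 in root. The chosen models deviated less in 8 of 8 libraries, yet more than inside the 7 libraries that chose them, where the median was 0.06 to 0.07. Counting error alone would give 0.05 to 0.06. A deviation above 1.2-fold was seen in 39, 8, 32 and 17 of 100 models in the leaf libraries and in 36, 6, 18 and 7 in the root libraries, beside 54.3% to 69.0% of all models. As a whole the chosen models lay off their mean over the 7 by a median of 0.10, -0.05, -0.05 and 0.01 in leaf libraries 1 to 4, and of 0.15, -0.03, -0.09 and -0.02 in root libraries 1 to 4, so that root library 1 stood highest and root library 3 lowest. Root library 1 also had the widest band of lowest values, at 25.5% of the worth of a read, against 5.23% to 10.2% in the others. The part of that width in the shift of root library 1 was not tested. The median over the 8 left-out libraries was 0.139 on the deposited values, 0.135 when the models were chosen and read on CPM, and 0.123 with quantile normalization. Choices on CPM thus had a left-out deviation of about the same size.

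**Figure D5:**
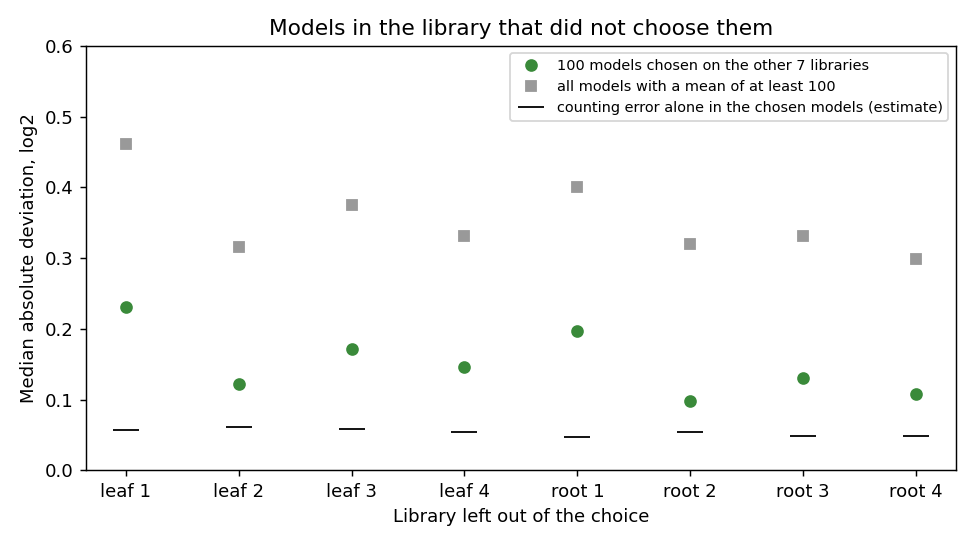
Median absolute deviation (log2) of 100 models in the library left out of their choice, of all models averaging 100 or more, and as estimated from counting error alone. The chosen models lie between 0.10 and 0.23, below all models (0.30 to 0.46) and above the estimate (0.05 to 0.06) in each of the 8 libraries.

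Membership itself depended on single libraries. Of the 100 models 47 were chosen again without leaf library 1, 55 without leaf library 3 and 58 without root library 1, while 67 to 82 were chosen again without each of the other 5. A member was chosen in a median of 6 of the 8 such sets, 68 were in at least 4 and 36 in all 8, and the 8 sets together held 333 models. The 36 had means of 115 to 2081 normalized counts and CVs up to 6.44%, and all 36 were among the lowest 100 by pairwise ratios. Of them 25 were also among the lowest 100 after quantile normalization. These 25, picked after their values were seen and all absent from the lowest 100 on CPM, are Pis11004.t1, Pis02156.t1, Pis08303.t1, Pis01402.t1, Pis13386.t1, Pis06289.t1, Pis12554.t1, Pis02717.t1, Pis19218.t1, Pis04533.t1, Pis08710.t3, Pis06984.t1, Pis17303.t1, Pis17467.t1, Pis11619.t1, Pis18979.t1, Pis11363.t1, Pis05850.t1, Pis08338.t1, Pis07461.t1, Pis07142.t1, Pis14533.t1, Pis00019.t1, Pis13537.t1 and Pis00805.t1, in order of CV. Settings that share 7 of 8 libraries are not independent of each other.

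A choice within 1 organ reached mostly other models. The 100 lowest in CV among the 8161 models averaging 100 or more in leaf had a median CV of 2.90% in leaf and shared 16 models with the set. In root, which did not choose them, their median CV was 10.3%, against 13.2% for the 8161. Their median leaf against root difference was 0.28 in size on the log2 scale, against 0.49, and limma called 41 of them, beside 49.9% of the 8161. A change above 2-fold was called for 3, beside 10.7%. The 100 lowest in root had a median CV of 2.09% there and shared 8 models with the set. In leaf their median CV was 14.5%, against 20.3% for the 8375 models averaging 100 or more in root. Their median difference was 0.26, against 0.51, and limma called 33 of them, beside 51.9%, and 7 above 2-fold, beside 14.1%. The leaf against root difference uses the choosing organ too, so these counts describe and do not test. A CV from 4 values scatters widely, and the lowest were taken. The medians of 2.90% and 2.09% are smaller than 5.94%, the median of the estimated counting CV over the 8528 models. That estimate uses the worth of a read averaged over leaf and root libraries. It is not given for the models of either choice, so their own counting error is not compared here. How far the small overlap with the set comes from the scatter of CVs was not tested.

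The names of the models, which the rule did not use, were compared as well. Of the 100 names 88 end in t1 and 12 in a higher number (8 in t2, 2 in t3, 1 in t4 and 1 in t5), and 12.0% of the 8528 models have such a higher ending. Each model number occurs in 1 row of the table, so other transcripts of the same gene could not be compared. The numbers run from 19 to 19417 with no pair closer than 3, and 22, 25, 31 and 22 members lie in 4 equal spans of the numbering, which hold 25.7%, 24.9%, 25.2% and 24.2% of the 8528. Whether numbers follow the genome is not stated. The 200 rows next to a member by number included 178 that were tested, of which 89 (50%) were called leaf against root, 42 higher and 47 lower in leaf, beside 51.6% of all tested models. Their median CV was 25.9% for the 121 averaging 100 or more, near the 27.9% of the range.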

How the data were processed

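Libraries were poly(A) RNA read as 150 bp pairs, per the labels' protocols. The table holds a signal in normalized counts, taken here as scaled before it was deposited. The band of the lowest values above 0 had its median at 0.928 to 1.45, depending on the library, and not at 1 throughout. Of 122848 values above 0, 1 was whole within 1e-06, which alone does not show scaling. Salmon and DESeq2 are the tools listed in the submitters' processing notes, with neither role nor version. The transcript set is not given in the sources used here, nor is a genome build. Depth was estimated as the column total over the median of the lowest band of values above 0, taken as 1 read; 0 columns went unused. Leaf columns are numbered 1 to 4 and leaf labels 1, 3, 4 and 5, so leaf columns were assigned by tissue. Whether flasks gave both a leaf and a root library is not stated, so the main fit was unpaired and would ignore a shared flask. Its p-values rest on the spread between libraries of an organ, moderated by limma over all tested models.

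The organs were compared by limma 3.58.1 (R 4.3.3, trended prior variance) on log2(value + 1) for models with at least 10 in at least 4 libraries (3 of 7 when a library was left out), adjusted by Benjamini-Hochberg. On CPM the columns were rescaled to their mean total before the log. The counting CV is the square root of the worth of a read over the mean; it covers counting error only, and PCR copies are not told apart. The ranking and the fit were tested on simulated data. Python 3.11.15, numpy 2.4.6 and pandas 2.3.3 were used. The members, the lists and the rules for naming models were chosen with earlier results of these data known. The naming rule took the 4 lowest CVs, the 2 models on each side of the limit, the 2 highest and 2 lowest means, the largest difference in each direction and the 2 lowest pairwise spreads. Its parts on members shared with CPM and on sister transcripts found no model.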

Additional observations from a re-analysis of the deposited data

Results flagged for a closer look

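Within the libraries of 1 tissue, 3 of 82 groups of values had 1 library apart from the other 3 by the Dixon test at its 95% level, which chance alone reaches in about 1 in 20 groups. Pis12187.t1, the steadiest model on CPM, had 365.6 normalized counts in leaf library 1 and 294.9 to 304.4 in the other leaf libraries, a gap of 0.867 of the range. Leaf library 1 also has the highest column total. Pis12554.t1 had 305.4 normalized counts in root library 1 and 265.5 to 270.7 in the other root libraries, a gap of 0.872 of the range. Pis04533.t1 had 542.9 normalized counts in leaf library 3 and 482.3 to 490.3 in the other leaf libraries, a gap of 0.868 of the range. The last 2 are members with CVs of 4.50% and 4.77%, so in a model this steady a value can stand apart while being within 1.15-fold of its neighbours.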

How the results depend on the processing

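Of 80 alternative values, 65 counted as like the reported value and 15 as moved. The labels are coarse: 67 members kept counted as like and 64 as moved. For all tested models, 5217 to 8472 called counted as like 7063. Among the 65 are values that the choice bounds, such as 0 members called, so the tally is no measure of robustness. Of the 100 models, 0 stayed among the lowest on CPM, 54 with quantile normalization, 33 by the larger CV of leaf and root, 35 with a minimum mean of 500, and 47 to 82 with single libraries left out. Alternatives chosen after seeing the data kept 24 (column totals without the 100 most abundant models), 64 (upper quartiles) and 40 (CV over counting CV). The median CV was 19.3% on CPM. The median log2 difference, leaf minus root, was -0.48 on CPM and -0.076 with quantile normalization. Members called were 99 on CPM (beside 8472 of 13688 tested models), 6 with quantile normalization (beside 7419) and 0 in the others. A replicate block on the table's column numbers gave 0 members and 6574 of all models, against 7063; same-numbered libraries correlated between -0.05 and 0.04 in their deviations, and equal numbers need not mark a shared flask. The cause of the moves other than rescaling or fewer libraries was not tested. Tests on other transcripts of the members' genes were not run, since no model number occurs more than once. For the 14 members under 200 normalized counts the estimated counting CV was above the observed CV.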
